A study of Mus musculus with 6 samples.

Results

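The mitochondrial ribosomal protein genes are the nuclear genes whose mouse symbol is Mrpl or Mrps followed by a digit, with pseudogenes left out. This rule was met by 78 of the 27179 genes with a deposited expression value, 49 named for the large subunit (Mrpl) and 29 for the small subunit (Mrps). They were read in leukemia-initiating cells (LICs) sorted as YFP+Mac-1+c-Kit+ cells from bone marrow of a mouse model of acute myeloid leukemia, in 3 libraries labelled Asic3-null (genotype Asic3-/-) and 3 labelled WT. In this model the fusion oncogene MLL-AF9 is carried with YFP by an MSCV retrovirus, so the viral promoter drives it, into Lin- fetal liver cells of Asic3-/- or Asic3+/+ donors, and the infected cells are transplanted into lethally irradiated C57BL/6 mice. All 6 libraries share the oncogene and the vector, and the labels give the strain C57BL/6 and an age of 8 weeks for each. The strain of the fetal liver donors was not given apart from this. The labels do not say whether libraries came from separate animals, from pooled marrow or from primary or secondary recipients, so p values below measure the spread between these libraries. Asic3 codes for an acid-sensing ion channel, and the comparison is between LICs labelled as lacking it and LICs labelled WT.

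The mitochondrial ribosome translates the few proteins that the mitochondrial genome still encodes, all of them subunits of the respiratory chain and ATP synthase. Its rRNAs are made inside the organelle, whereas each of its proteins is encoded in the nucleus, translated in the cytosol and imported. The small subunit decodes the mRNA and the large subunit forms the peptide bond and passes the nascent chain to the inner membrane. Many of its proteins have a counterpart in bacterial ribosomes and others were added in the mitochondrial lineage. Myeloid leukemia stem and progenitor cells are known to rely on mitochondrial translation and respiration.

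The libraries were shallow, at 1947168 to 2381861 reads, as recovered from the deposited RPKM values (reads per length of gene, scaled to the total of the library). Asic3 itself went against the labels, reading 4.11 to 9.12 RPKM under the Asic3-null label and 0.435 to 1.85 RPKM under the WT label. Whether each label matches its genotype was not tested, and Asic3-null and WT stand below for the libraries so labelled, in every direction given. Meis1, a transcription factor gene of LICs, was higher under the Asic3-null label (21.7 to 35.3 RPKM against 14.0 to 14.9 RPKM, limma adjusted p = 0.0367). Hoxa9, another such gene, had 42.3 to 67.1 RPKM against 73.5 to 87.8 RPKM and was not called (log2 fold change -0.58 between Asic3-null and WT, limma adjusted p = 0.151). The label was also confounded with sex, since Xist read 46.5 to 71.9 RPKM in the Asic3-null libraries and at most 0.0573 RPKM in WT, whereas Ddx3y read 0 in each Asic3-null library and 15.8 to 23.8 RPKM in WT. The LIC marker Kit was present in every library (14.4 to 20.4 RPKM in Asic3-null and 8.97 to 15.3 RPKM in WT). Itgam, the gene of Mac-1, was lower in Asic3-null (12.3 to 16.9 RPKM against 55.1 to 89.5 RPKM, limma adjusted p = 0.00072). Of 15 neutrophil granule genes 14 were called lower in Asic3-null, and their summed level was 1303 to 1852 RPKM against 7466 to 9196 RPKM in WT. No T cell marker of 7 passed the filter on low values, of 10 erythroid genes only Hba-a1 passed it (0 RPKM in each Asic3-null library and 0 to 4.25 RPKM in WT), and of 6 B cell genes only Cd79b passed it (log2 fold change -0.07 between Asic3-null and WT, limma adjusted p = 0.847). What sex, the granule genes and the reversed Asic3 reading contribute to the members' values was not tested, and in bulk RNA fewer cells of a type and less RNA per cell cannot be told apart.

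All 78 members were detected in all 6 libraries and all passed the filter of a mean of at least 1 RPKM. Their mean level spanned 109-fold, from 3.39 RPKM for Mrps36 to 369 RPKM for Mrpl33, with a median of 39.2 RPKM and an interquartile range of 20.9 to 63.0 RPKM. All tested genes had a median of 14.4 RPKM. The members were short genes, with a median length of 1054 bases against 2474 bases for all tested genes, and a member had a median of 101.5 reads in a library. The spread of a member within a group was a median of 15.1% of its mean, where counting alone gives 9.91%, and the variance of the reads was a median of 2.09 times that of Poisson counting.

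**Figure D1:**
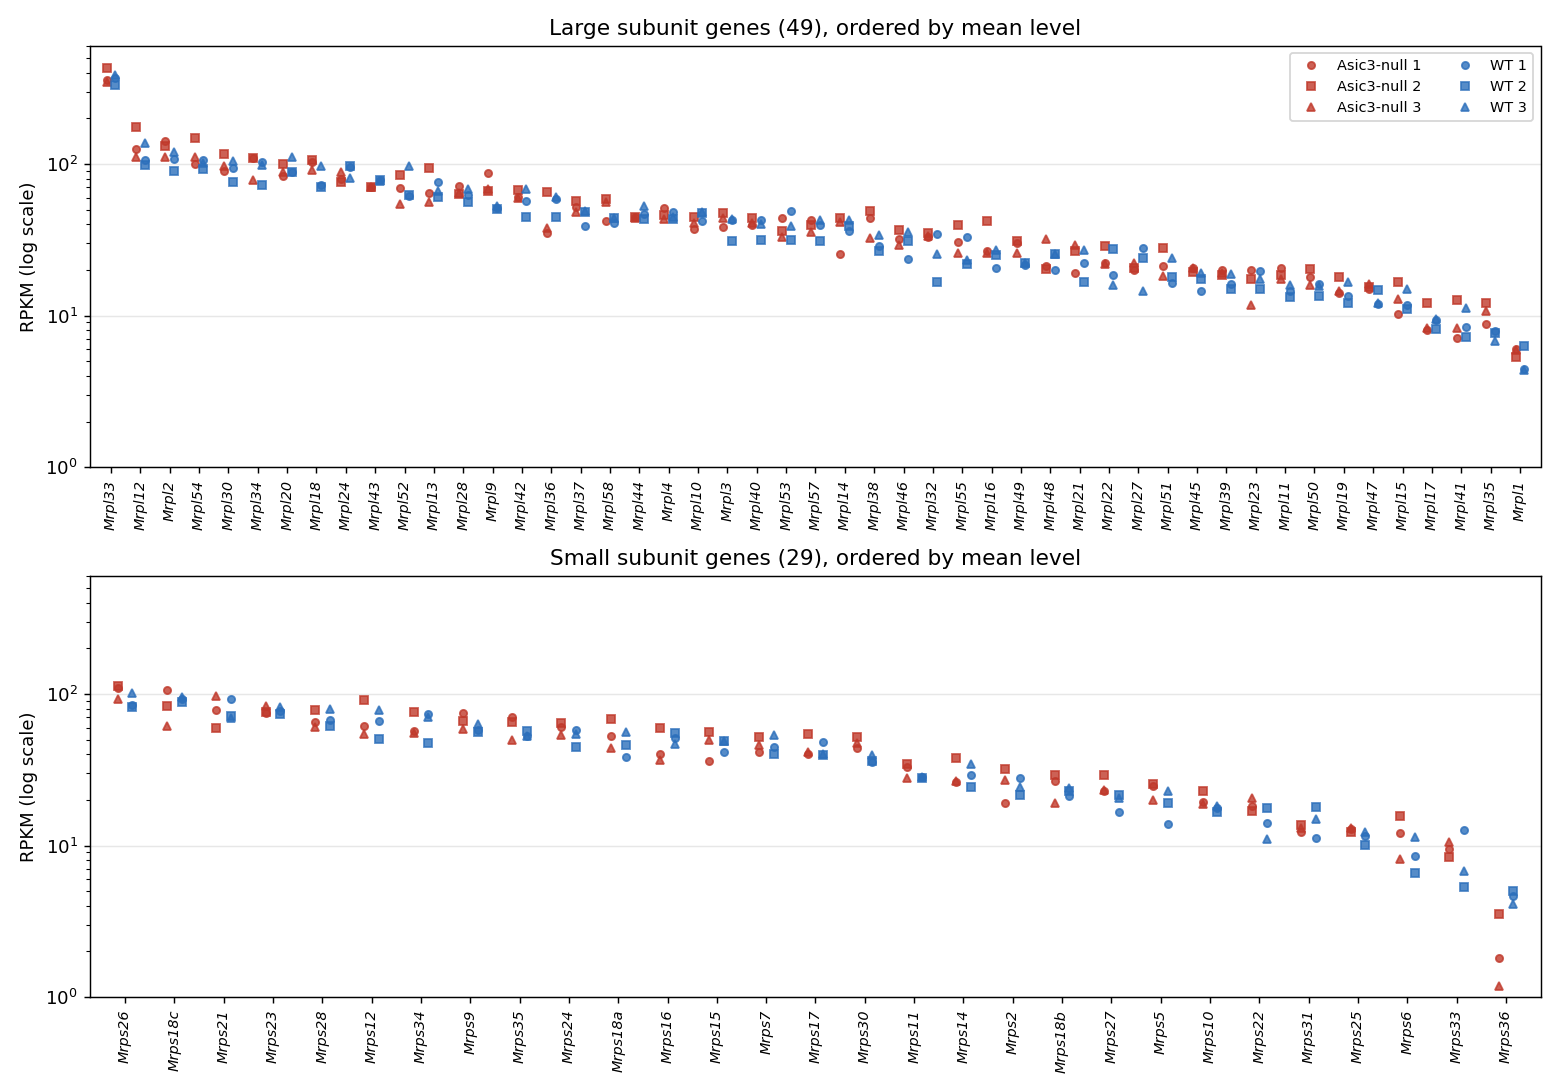
RPKM on a log axis for each member in each library, with Asic3-null in red and WT in blue and the marker shape giving the replicate number, for the 49 large subunit genes (top) and the 29 small subunit genes (bottom) in order of mean level. Mrpl33 stands above the other members, Mrps36 lies below them, and for most genes the red and blue points overlap.

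Mrpl33, a small protein of the large subunit with a bacterial counterpart, had the highest level of any member. It read 355, 427 and 349 RPKM in Asic3-null replicates 1, 2 and 3 and 368, 330 and 385 RPKM in WT replicates 1, 2 and 3. The groups overlapped, and the log2 fold change (Asic3-null minus WT on the log2(RPKM + 1) scale, as for every fold change below) was 0.06 ± 0.13 (SE, n = 3 and 3). The next in level were Mrpl12, which forms the flexible stalk that recruits translation factors and is also known to bind the mitochondrial RNA polymerase, and Mrpl2, a core protein near the peptidyl transferase center. Mrpl12 had 125, 174 and 111 RPKM in Asic3-null and 106, 97.95 and 137 RPKM in WT. Mrpl2 had 142, 132 and 110 RPKM in Asic3-null and 107, 90.3 and 121 RPKM in WT. Neither gene separated the groups, the 2 genes did not differ in level beyond this spread, and the lowest values of both were in WT replicate 2. Of the small subunit, Mrps26, a protein with no bacterial counterpart, was highest at 110, 114 and 93.0 RPKM in Asic3-null and 84.0, 81.7 and 101 RPKM in WT. Mrps18c followed with 106, 83.6 and 61.1 RPKM against 92.8, 89.0 and 95.9 RPKM, and Mrps21 with 78.5, 59.8 and 96.3 RPKM against 92.3, 71.9 and 69.5 RPKM. The values of these 3 small subunit genes overlapped, so a difference in level between neighbors in this order was not resolved.

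No member differed between the labels past the threshold. Of 12037 genes tested with limma and Benjamini-Hochberg adjustment, 403 were called at an adjusted p under 0.05, which is 3.35% of them, and 0 of the 78 members were among these. At an unadjusted p under 0.05 there were 5 members higher in Asic3-null (6.41%, against 6.43% of all tested genes) and 1 lower (1.28%, against 9.45% of all tested genes). limma-voom on the recovered reads likewise called 0 members, with 5 at an unadjusted p under 0.05. All 3 Asic3-null values lay above all 3 WT values for 9 members (11.5%, against 11.2% of all tested genes) and below them for 2 members (2.56%, against 11.4%). The share of members apart in the higher direction was thus near the background, and the share apart in the lower direction was under it.

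The values of most members nevertheless leaned the same way. The log2 fold change was above 0 for 60 of the 78 members (76.9%, against 54.5% of all tested genes), and the median was 0.14 beside 0.03 for all tested genes. The members' fold changes were close to each other, with an interquartile range of 0.01 to 0.24. For single genes the 95% interval of the fold change lay within 2-fold either way for 77 members, Mrps36 being the exception, and within 1.5-fold for 44. Across the 78 genes the mean log2 level in Asic3-null and in WT correlated at r = 0.98, a description over genes that are not independent replicates.

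**Figure D2:**
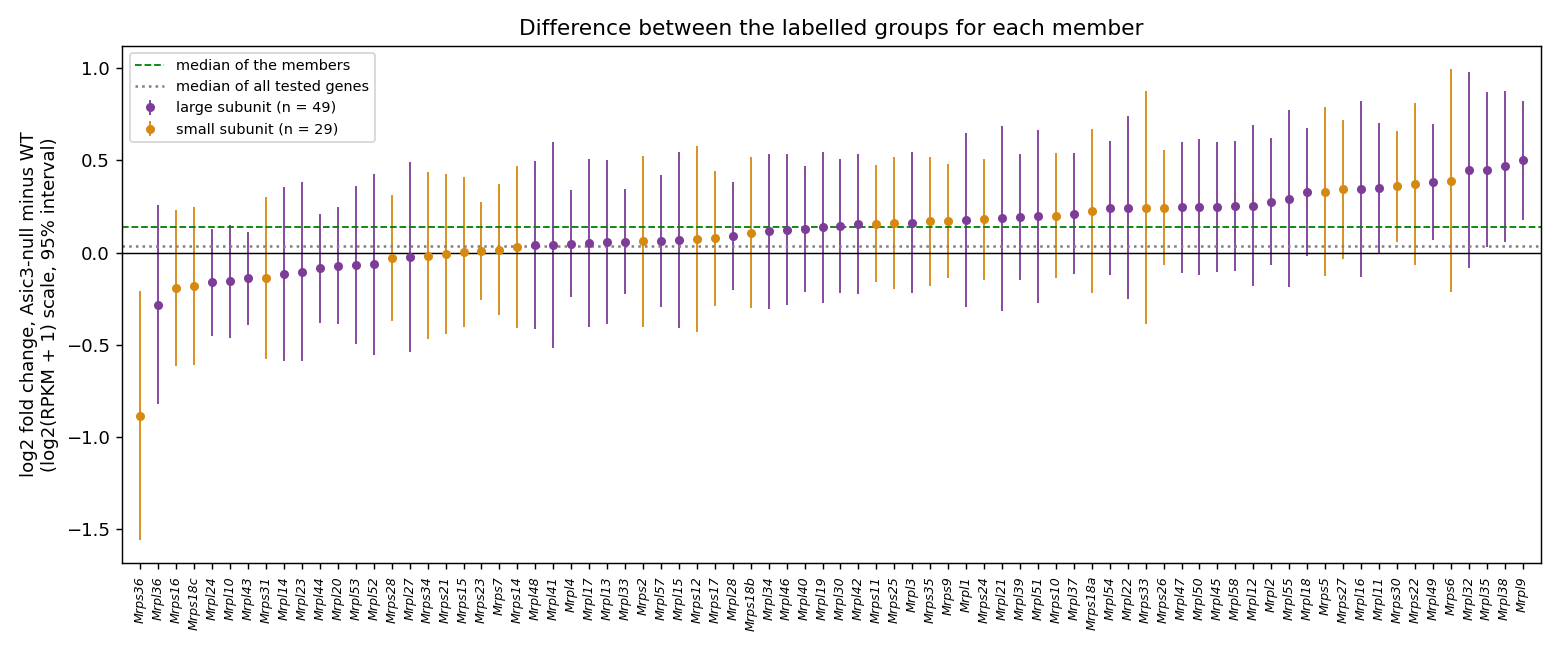
Log2 fold change between Asic3-null and WT for each member in rising order with its 95% interval from the limma fit, large subunit genes in purple and small subunit genes in orange, with the median of the members (green, 0.14) and of all tested genes (grey, 0.03). Mrps36 at the left end is the 1 member whose interval reaches beyond 2-fold.

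Of the large subunit genes, Mrpl9 had the highest fold change and the lowest adjusted p of any member. Its protein is the counterpart of a bacterial protein at the base of the L1 stalk, and the gene lies on chromosome 3 of GRCm38.p6, from 94443154 to 94448708. Mrpl9 read 87.1, 65.8 and 68.4 RPKM in Asic3-null (73.8 ± 11.6, SD, n = 3) and 51.1, 50.7 and 52.8 RPKM in WT (51.5 ± 1.10, SD, n = 3). All 3 Asic3-null values were higher, and the WT values lay close together. The log2 fold change was 0.50 ± 0.14 (SE), with an adjusted p of 0.113 in limma and an exact two-sided permutation p of 0.1, the smallest that 3 against 3 allows. With 1 library left out this rank did not always hold. Mrpl9 lay below Mrpl35 without Asic3-null replicate 1 (0.37 against 0.56) and below Mrpl32 without WT replicate 1 (0.49 against 0.69). It lay below Mrpl38 without Asic3-null replicate 3 (0.55 against 0.63) and without WT replicate 3 (0.52 against 0.56). Nor did it have the lowest limma adjusted p of the members in these settings. With either library numbered 2 left out it stayed highest of the named members. Mrpl38, of the central protuberance, had 43.8, 49.1 and 32.6 RPKM in Asic3-null and 28.6, 26.6 and 33.8 RPKM in WT. The groups overlapped in 1 value, with a log2 fold change of 0.47 ± 0.18 (limma adjusted p = 0.249). Mrpl35, a core protein with a bacterial counterpart and among the least abundant members, had 8.77, 12.2 and 10.7 RPKM against 7.85, 7.64 and 6.74 RPKM, without overlap (0.45 ± 0.18, limma adjusted p = 0.282). Mrpl32, whose protein is matured by the m-AAA protease before it is built into the ribosome, had 33.2, 35.0 and 33.3 RPKM against 34.7, 16.7 and 25.3 RPKM. Its fold change of 0.45 ± 0.23 came from WT replicates 2 and 3, since WT replicate 1 was as high as the Asic3-null libraries, and it was 0.18 without WT replicate 2 and 0.69 without WT replicate 1. Mrpl49, named after its values were seen because its unadjusted p was also under 0.05, had 30.1, 31.0 and 26.0 RPKM against 21.5, 22.1 and 22.3 RPKM, without overlap (limma adjusted p = 0.222).

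At the other end of the large subunit, Mrpl36, a short protein with a bacterial counterpart, had 35.0, 65.2 and 37.8 RPKM in Asic3-null and 58.5, 44.4 and 60.4 RPKM in WT. Its highest value was in Asic3-null replicate 2 and its log2 fold change was -0.28 ± 0.24. It ranged from -0.12 to -0.56 with 1 library left out, the first without Asic3-null replicate 1 and the second without Asic3-null replicate 2, and was -0.70 with both libraries numbered 2 left out (limma adjusted p = 0.117). Mrpl24, at the rim of the exit tunnel, had 79.2, 76.5 and 88.0 RPKM against 95.7, 96.3 and 81.0 RPKM (-0.16 ± 0.13). The groups overlapped for both genes. Mrpl43, named after its values were seen, was the 1 large subunit gene whose Asic3-null values all lay lower, at 70.9, 70.6 and 70.2 RPKM against 78.0, 78.8 and 76.6 RPKM. The values lay close together within each group, and the log2 fold change was -0.14 ± 0.11 (limma adjusted p = 0.583). Of its exonic bases, 33.4% overlap exons of another annotated gene, and the kit does not mark strand.

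Other large subunit genes with a known role showed the same small differences. The 2 stalk genes went in different directions, with a log2 fold change of 0.25 for Mrpl12, which was -0.03 with both libraries numbered 2 left out, and -0.16 for Mrpl10, neither called. Of the 6 genes at the rim of the exit tunnel 4 were above 0, including Mrpl45, which anchors the ribosome to the inner membrane. Mrpl45 had 20.4, 19.5 and 20.5 RPKM in Asic3-null and 14.5, 17.3 and 18.9 RPKM in WT, without overlap, and a log2 fold change of 0.25 ± 0.15 (limma adjusted p = 0.474), which was 0.15 without WT replicate 1. All 5 genes listed for the central protuberance, Mrps30 among them, were above 0, from 0.04 for Mrpl48 to 0.47 for Mrpl38. Their median was 0.12 and none were called. The list need not hold every protein of the protuberance. Mrpl44, a protein with an RNase III-like fold, was even across the libraries apart from WT replicate 3, where it was higher. It had 44.9, 44.8 and 44.0 RPKM against 46.4, 43.3 and 52.8 RPKM (-0.09 ± 0.13). Mrpl58, a peptidyl-tRNA hydrolase that is also an integral protein of the large subunit, had 41.8, 58.3 and 55.7 RPKM against 40.8, 44.1 and 44.3 RPKM (0.25 ± 0.16), with 1 Asic3-null value inside the WT range.

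Of the small subunit genes, Mrps6 had the highest fold change, 0.39 ± 0.27, at a low level with overlapping groups. It was 0.62 on omitting Asic3-null replicate 3 and 0.57 on omitting WT replicate 3. It was 0.19 without Asic3-null replicate 2, 0.22 without WT replicate 2 and 0.02 without both, and in these 3 settings Mrps30 lay above it (0.29, 0.34 and 0.28). It read 12.2, 15.6 and 8.19 RPKM in Asic3-null and 8.54, 6.58 and 11.4 RPKM in WT, from 10 to 29 reads a library. Mrps16, also of the conserved core, had 40.4, 59.3 and 36.9 RPKM against 51.3, 55.3 and 47.0 RPKM (-0.19 ± 0.19). With 1 library left out it ranged from -0.06 without Asic3-null replicate 3 to -0.40 without Asic3-null replicate 2. As for Mrpl36, its highest value was in Asic3-null replicate 2. The 3 paralogs of the bacterial S18 protein differed in level more than in response. Mrps18a, whose protein sits in the large subunit, had 53.0, 68.0 and 43.9 RPKM in Asic3-null and 38.5, 45.8 and 55.7 RPKM in WT (0.22 ± 0.20), and Mrps18b had 26.7, 29.1 and 19.0 RPKM against 21.2, 22.9 and 24.1 RPKM (0.11 ± 0.18). The value of Mrps18a was 0.06 without Asic3-null replicate 2, 0.10 without WT replicate 1, 0.36 without WT replicate 3 and 0.37 without Asic3-null replicate 3. Mrps18c, given above, had a log2 fold change of -0.18 ± 0.19, which was 0.02 without Asic3-null replicate 3 and -0.37 without Asic3-null replicate 1. The groups overlapped for all 3 paralogs, whose levels had the order Mrps18c, Mrps18a and Mrps18b in all 6 libraries. Their intervals overlapped too, so a difference in response between the paralogs was not resolved.

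Mrps30 and Mrps36 carry small subunit symbols for proteins found elsewhere, as Mrps18a does. The protein of Mrps30 is known to sit in the central protuberance of the large subunit. It had 43.7, 52.3 and 47.4 RPKM in Asic3-null and 35.3, 36.2 and 39.6 RPKM in WT, without overlap, and a log2 fold change of 0.36 ± 0.13 (limma adjusted p = 0.232, exact two-sided permutation p = 0.1). Mrps36, on chromosome 13 from 100735940 to 100744659, is known as a component of the oxoglutarate dehydrogenase complex rather than of the ribosome, and was the lowest member in level. It had 1.81, 3.52 and 1.19 RPKM in Asic3-null and 4.65, 5.02 and 4.13 RPKM in WT. All 3 Asic3-null values lay lower, but they rest on 3, 6 and 2 reads against 7, 7 and 7 reads. The log2 fold change was -0.88 ± 0.30 (limma adjusted p = 0.188, exact two-sided permutation p = 0.1).

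Large and small subunit genes are set side by side with no test, since genes are not replicates. The log2 fold change was above 0 for 38 of 49 large and 22 of 29 small subunit genes, with medians of 0.14 and 0.11, and 0 of either were called. With 1 library left out the medians ranged from 0.04 to 0.20 and from 0.05 to 0.17, the lowest of both on omitting WT replicate 2 (0.045 and 0.046), so an order of the subunits was not resolved. The structures place Mrps18a and Mrps30 in the large subunit and leave out Mrps36. With these genes moved in that way, the medians were 0.15 and 0.09. The ribosomal proteins under other symbols, given below, were in neither median. The summed level of the large subunit genes was 2527, 2908 and 2420 RPKM in Asic3-null and 2424, 2197 and 2606 RPKM in WT. That of the small subunit genes was 1251, 1397 and 1159 RPKM in Asic3-null and 1199, 1117 and 1264 RPKM in WT. The ratio of these sums was 2.02, 2.08 and 2.09 in Asic3-null and 2.02, 1.97 and 2.06 in WT, so both subunits moved together from library to library and the groups overlapped in the sums and in the ratio. The 48 genes with a bacterial counterpart (median 0.11, 37 above 0) and the 30 without one (median 0.16, 23 above 0) are given in the same way, and 0 of either were called.

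The members' levels varied between libraries within each group. The median deviation of the members from their own 6-library means was 0.03, 0.22 and -0.05 in Asic3-null replicates 1, 2 and 3 and -0.06, -0.17 and 0.05 in WT replicates 1, 2 and 3, on the log2(RPKM + 1) scale. Of the 78 members 44 had their highest value in Asic3-null replicate 2, and 37 had their lowest in WT replicate 2. Without Asic3-null replicate 2 the median log2 fold change of the members was 0.07 with 49 above 0, and without WT replicate 2 it was 0.05 with 48 above 0. With any 1 library left out, 48 to 64 members were above 0. With both of the libraries numbered 2 left out, a setting chosen after seeing the data, 39 of the 78 members were above 0 and the median was 0.01, beside 0.03 for all genes tested there. These were the highest Asic3-null and the lowest WT library for the members, so leaving them out had to lower the median, and the values are a description.

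**Figure D3:**
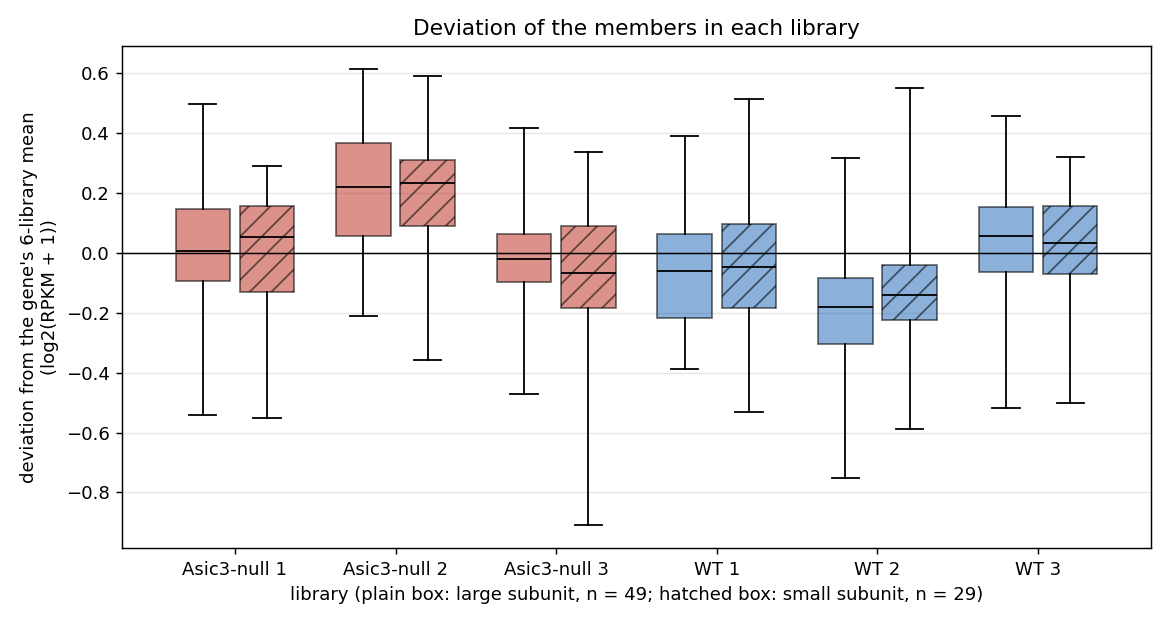
Deviation of each member from its own 6-library mean on the log2(RPKM + 1) scale in each library, Asic3-null in red and WT in blue, with plain boxes for the 49 large subunit genes and hatched boxes for the 29 small subunit genes. Lines are medians, boxes the interquartile range and whiskers the full range. The boxes of Asic3-null replicate 2 lie above 0 and those of WT replicate 2 below it, in both subunits.

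Deviations also varied with gene length over the whole table, in libraries of both groups. In Asic3-null replicate 2 the median deviation of all tested genes was 0.13 in the shortest 20% of genes (up to 1178 bases) and -0.14 in the longest 20% (from 4332 bases), the reverse of Asic3-null replicates 1 and 3, where it rose from -0.02 to 0.09 and from -0.06 to 0.11. WT replicate 1 ran from 0.03 to 0.02, WT replicate 2 from -0.06 to 0.02 and WT replicate 3 from 0.03 to -0.08. Of the 78 members 44 were in the shortest 20% and 22 in the next 20%, and their median log2 fold change was 0.12 and 0.18 there, beside 0.01 and 0.04 for all tested genes. With a length trend removed from each library, a setting also chosen after seeing the data, the members' median was 0.12 with 58 above 0 and 0 called. Fragment length and RNA quality were not given, and their part was not tested.

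**Figure D4:**
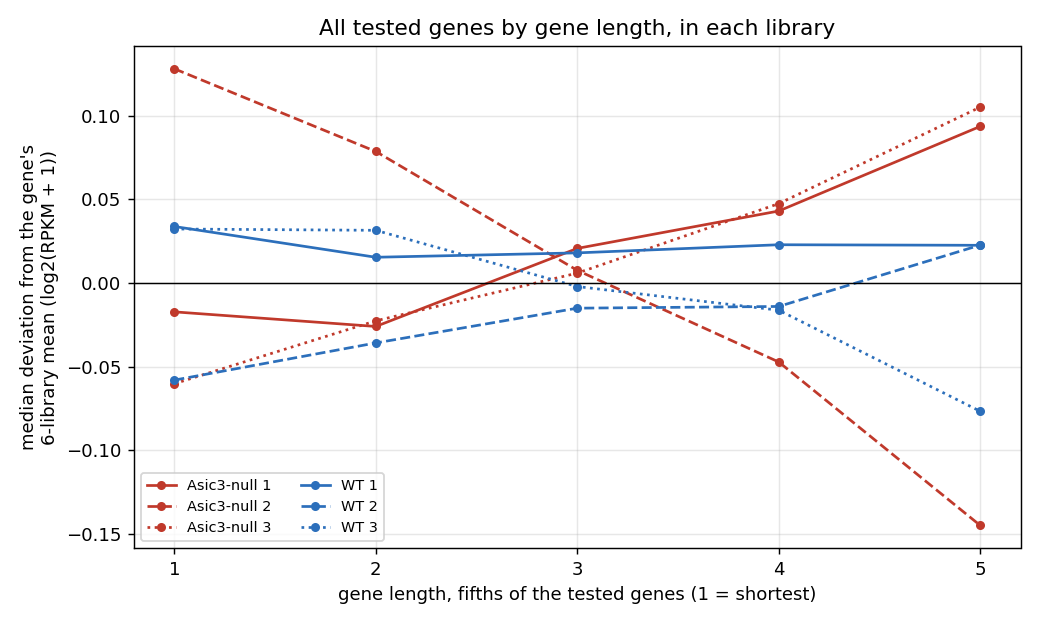
Median deviation of all tested genes from their 6-library means on the log2(RPKM + 1) scale by gene length, in 5 classes of 20% of the genes each,, 1 line a library, Asic3-null in red and WT in blue. Asic3-null replicate 2 (dashed red) falls from 0.13 to -0.14, whereas the other Asic3-null libraries rise.

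The starts of the genes were examined for letters bound by factors known to drive nuclear genes of mitochondrial proteins. RefSeq (GRCm38.p6) gave 75 windows of 300 bases, from 250 before the start, for 69 members. The letters searched on both strands were GCGCANGCG for NRF1, CCGGAAG for GABPA, AAGATGGCG for YY1 and CACGTG for the E-box that MYC can bind, and no match of one overlapped a match of another in the members' windows. GABPA letters were in 26 windows (34.7%, against 19.0% of the 11232 windows of tested genes), NRF1 letters in 16 (21.3% against 13.9%), YY1 letters in 8 (10.7% against 3.30%) and E-box letters in 7 (9.33% against 10.4%). These are shares of windows and not of genes. The 7 E-box windows belong to 5 members, since overlapping windows of Mrpl2 were each counted. At least 1 of the 4 kinds of letters was in 61.3% of the members' windows and 38.5% of those of tested genes. The 4 members printed next were chosen because the 130 bases before their start hold no GENCODE exon and lie outside the RefSeq gene, and they show GABPA matches close to the start and an E-box match, in capitals.
Mrps22, chr9:98601680-98601809, minus strand, GABPA letters 11 bases before the start: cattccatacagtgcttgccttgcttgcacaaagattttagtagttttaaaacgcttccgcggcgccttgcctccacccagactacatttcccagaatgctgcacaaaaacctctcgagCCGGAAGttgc
Mrpl34, chr8:71464796-71464925, plus strand, GABPA letters 37 bases before the start: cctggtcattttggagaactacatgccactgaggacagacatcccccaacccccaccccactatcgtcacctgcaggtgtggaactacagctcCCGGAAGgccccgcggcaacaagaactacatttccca
Mrpl52, chr14:54426779-54426908, plus strand, GABPA letters 47 bases before the start: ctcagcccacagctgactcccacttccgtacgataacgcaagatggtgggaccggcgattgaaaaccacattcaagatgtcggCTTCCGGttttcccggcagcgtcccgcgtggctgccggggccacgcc
Mrpl20, chr4:155802748-155802877, plus strand, E-box letters 33 bases before the start: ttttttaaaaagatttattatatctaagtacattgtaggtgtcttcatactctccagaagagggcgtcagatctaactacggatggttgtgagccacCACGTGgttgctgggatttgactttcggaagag

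Grouped by these letters, the members had medians on both sides of 0. The median log2 fold change was 0.16 for the 16 members with NRF1 letters, 0.09 for the 26 with GABPA letters, 0.20 for the 8 with YY1 letters and -0.07 for the 5 with E-box letters, beside 0.12 for the 25 whose windows held none. No member of any of these groups was called. Of the factors, Yy1 had 76.9, 74.1 and 66.1 RPKM in Asic3-null and 52.4, 53.0 and 62.2 RPKM in WT, without overlap (0.37 ± 0.13, limma adjusted p = 0.213), and Gabpa had 25.9, 19.8 and 24.8 RPKM against 17.2, 20.1 and 18.1 RPKM (0.33 ± 0.16, limma adjusted p = 0.362). Nrf1 had 20.1, 15.7 and 16.0 RPKM against 12.8, 14.8 and 14.2 RPKM, without overlap. Its log2 fold change was 0.28 ± 0.16 (limma adjusted p = 0.433). Myc went the other way, with overlap, at 67.5, 89.4 and 64.3 RPKM against 82.5, 59.3 and 110 RPKM. Its log2 fold change was -0.15 ± 0.22 (limma adjusted p = 0.786). Of the 10 regulators of mitochondrial biogenesis listed 9 passed the filter, 7 were above 0 and 0 were called, with a median of 0.21. Ppargc1a did not pass it, at 0 to 0.0656 RPKM.

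Some members start near a neighbor on the other strand. A gene starting within 1000 bases on the opposite strand was annotated for 23 members (29.5%, against 14.8% of tested protein-coding genes). The partner was tested for 21 of them, and it had a fold change of the same sign as the member for 9 of 21. Of the 78 members 32 share exonic bases with another annotated gene and 9 share over 20%, among them Mrps18b, Mrpl24 and Mrpl43. Reads of such pairs cannot be told apart without strand.

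In the lists of genes that act with the mitochondrial ribosome 0 genes were called as well. Of the 5 ribosomal proteins under other symbols 4 were below 0 and 0 were called. The 2 with the lowest p were Aurkaip1, at 51.8, 76.7 and 60.6 RPKM in Asic3-null and 74.7, 78.6 and 69.5 RPKM in WT (-0.25 ± 0.16), and Ptcd3, at 11.3, 13.8 and 13.3 RPKM against 15.9, 16.4 and 12.7 RPKM (-0.21 ± 0.17), with overlap for both. The 26 assembly factors had a median of -0.02, with 12 above 0 and 0 called. Among these, Rcc1l (0.35 ± 0.15) and Dhx30 (0.31 ± 0.14), both needed to assemble the ribosome, were without overlap and higher in Asic3-null, at limma adjusted p of 0.305 and 0.332. Of 15 translation factors tested 13 were above 0 (median 0.09). Gfm1, the elongation factor that moves the ribosome along the mRNA, had a log2 fold change of 0.37 ± 0.16, and Gfm2, which splits it after termination, one of -0.45 ± 0.21 with 3.70, 3.68 and 4.60 RPKM in Asic3-null and 6.38, 4.88 and 6.22 RPKM in WT, without overlap. Neither was called, at limma adjusted p of 0.304 and 0.334.

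The 20 mitochondrial aminoacyl-tRNA synthetases and amidotransferase subunits, which charge the tRNAs, had a median of 0.07 with 14 above 0 and 0 called. Fars2 (0.49 ± 0.18) and Ears2 (0.47 ± 0.17) had the lowest p, at limma adjusted p of 0.218 and 0.213. The 9 genes of mitochondrial DNA transcription and replication had a median of -0.01 with 4 above 0, and the lowest p were those of Polg2 (-0.46 ± 0.26) and Polrmt (0.30 ± 0.20), 0 of the 9 being called.

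Most cytoplasmic ribosomal protein genes and most nuclear respiratory chain genes were above 0 as well. Of 83 cytoplasmic ribosomal protein genes tested 74 were above 0, with a median of 0.24 and 0 called. An unadjusted p under 0.05 was reached by 16 of them, all higher in Asic3-null (19.3%, against 6.43% of all tested genes), and 35 had all Asic3-null values above all WT values (42.2%, against 11.2%). The lowest p were those of Rpl22l1 (0.48 ± 0.12, limma adjusted p = 0.0633) and Rps3a1 (0.39 ± 0.11, limma adjusted p = 0.1), and reads of this family are uncertain because it has many near-identical pseudogenes. Of 81 nuclear respiratory chain genes tested 61 were above 0, with a median of 0.14, 2 at an unadjusted p under 0.05, 4 with all Asic3-null values above all WT values (4.94%) and 1 called. That gene, Cox6a2, the muscle isoform of a cytochrome oxidase subunit, was at 2.62, 7.01 and 4.52 RPKM in Asic3-null and 0.722, 0.779 and 1.28 RPKM in WT (1.51 ± 0.33, limma adjusted p = 0.0447). The values of Cox6a2 rest on 4, 11 and 7 reads in Asic3-null and 1, 1 and 2 reads in WT. Both lists were highest in Asic3-null replicate 2 and lowest in WT replicate 2, as the members were, but not alike in the other libraries. In WT replicate 3 the median deviation was -0.08 for the cytoplasmic ribosomal proteins, 0.08 for the respiratory chain and 0.05 for the members. The median deviation in Asic3-null replicate 2 was 0.24 for the cytoplasmic ribosomal proteins and 0.17 for the respiratory chain, and in WT replicate 2 it was -0.24 and -0.15. With both of these libraries left out 64 of the 83 cytoplasmic genes were above 0 (median 0.12) and 39 of the 81 respiratory chain genes (median -0.01). Cox6a2 was no longer called without either of them. All 7 proliferation genes were above 0 with a median of 0.30 and 0 called, also with both of these libraries left out (median 0.52), and their summed level was 564 to 669 RPKM in Asic3-null and 394 to 581 RPKM in WT.

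**Figure D5:**
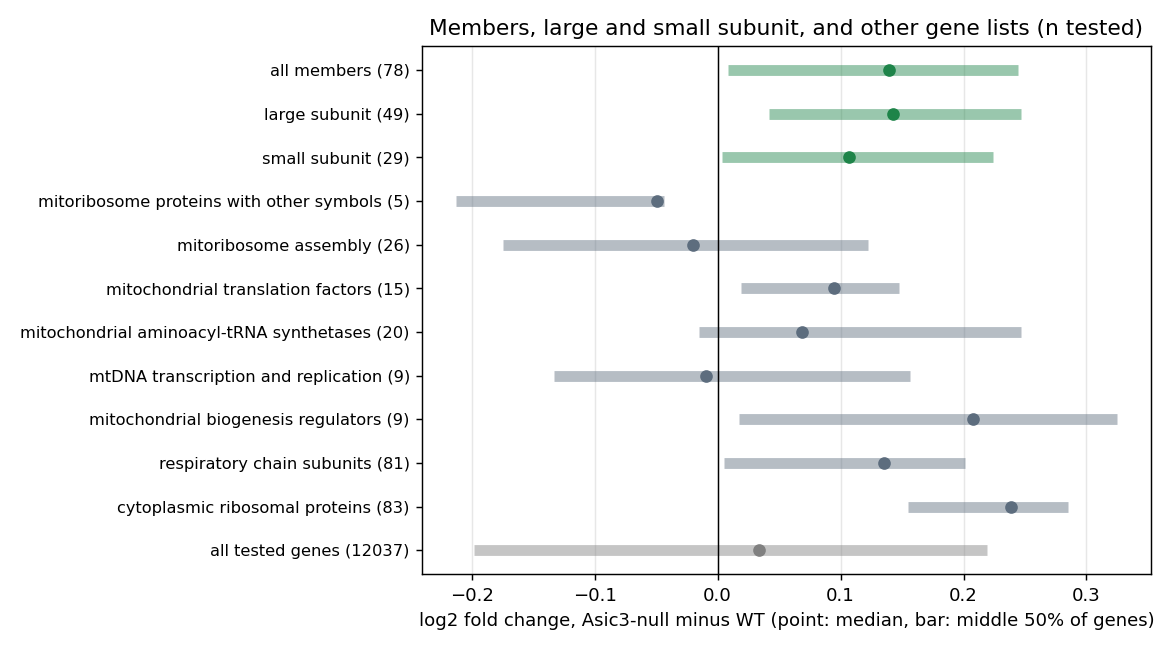
Log2 fold change between Asic3-null and WT for the members, their 2 subunits and other gene lists, with the median as a point, the interquartile range as a bar and the number of genes tested in brackets. The members' median of 0.14 lies between that of the assembly factors (-0.02) and that of the cytoplasmic ribosomal proteins (0.24).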

How the data were processed

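Total RNA of sorted LICs was made into libraries with the TruSeq RNA v2 kit, which does not mark strand. Per the submitters' processing notes CASAVA 1.8.2 and TopHat2 2.0.12 were used with GRCm38, and the authors deposited 1 table of RPKM values for 27179 genes by Entrez number. The counting tool and annotation are not given in the sources used here. Symbols came from RefSeq (GRCm38.p6), which named 25275 genes, and overlaps from GENCODE M21. Each value above 0 (16825 genes) corresponded to whole reads to within 0.0001 of a read. The authors do not state these recovered reads, which follow from the precision of the RPKM.

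The 12037 genes whose RPKM averaged 1 or more over the 6 libraries entered 1 limma fit (version 3.58.1, R 4.3.3) of log2(RPKM + 1) on the label, with an intensity trend, two-sided p values and Benjamini-Hochberg adjustment over these genes at a threshold of 0.05. This scale understates changes of low genes. The step was tested on simulated data. Named members were compared by an exact permutation test of mean RPKM. Members and lists were chosen with earlier results of these data known, so lists are given by counts and medians with no test. Named were called genes, the 5 highest and 5 lowest fold changes, the 3 highest levels per subunit, paralogs and members of known role. Of other lists the called genes or the 2 lowest p were named. Nrf1 and Myc were added because letters they can bind were searched. Python 3.11.15 with numpy 2.4.6 and pandas 2.3.3 made the summaries. Mitochondrially encoded rRNAs and mRNAs were not analysed here.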

Additional observations from a re-analysis of the deposited data

How the results depend on the processing

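No member was called under any alternative: quantile normalization, a pseudocount of 0.1, no filter, a stricter filter at 5 RPKM (77 members tested), no intensity trend, scaling by median ratios, the replicate block, each library left out, and, added after seeing the data, limma-voom, a length trend removed and both libraries numbered 2 left out. The lowest adjusted p of a member in any of them was 0.0802. The members at an unadjusted p under 0.05 ranged from 2 to 8. Libraries with the same number deviated together at r = 0.059, -0.059 and -0.123. Libraries with different numbers ranged from r = -0.073 to 0.141, so these values show no pairing by number and cannot exclude one. With the replicate block 0 members were called and 2 had an unadjusted p under 0.05. Leaving out 1 library gave medians of the members from 0.05 to 0.18. With both libraries numbered 2 left out the median was 0.0052 for the members and -0.012 for the large subunit, and large minus small was -0.030 instead of 0.036. With 1 library omitted this difference was -0.0017 (WT replicate 2), -0.00082 (WT replicate 1), 0.012 (Asic3-null replicate 3), 0.017 (Asic3-null replicate 2), 0.051 (WT replicate 3) and 0.062 (Asic3-null replicate 1). The difference was 0.081 without members sharing over 20% of exonic bases. Of 21 named members 5 changed sign under some alternative. Mrps21 was 0.017 under quantile normalization, and with both libraries numbered 2 left out Mrpl33 was -0.098, Mrpl12 -0.029, Mrps21 0.12 and Mrps18b -0.0049. With 1 library left out Mrpl33 ranged from -0.033 to 0.11, Mrps21 from -0.17 to 0.17, Mrps18b from -0.011 to 0.28 and Mrps18c from -0.37 to 0.023. Other named members that moved by over 1.5 times with 1 library left out and are not given so above were Mrpl12 (0.069 to 0.40, the lowest on omitting Asic3-null replicate 2 and the highest on omitting WT replicate 3, with 0.16 on omitting WT replicate 2 and 0.39 on omitting Asic3-null replicate 3), Mrpl58 (0.16 without Asic3-null replicate 2 and 0.40 without Asic3-null replicate 1), Mrpl2 (0.16 without WT replicate 2), Mrpl24 (-0.24 without WT replicate 3) and Mrpl44 (-0.0086 without WT replicate 3 and -0.15 without WT replicate 2). None of these was called. The cause was not tested. The depth limits Mrps36 most, at 2 to 7 reads a library.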
